A study of Homo sapiens with 12 samples.

Results

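The genes described here are 28 components of B cell receptor signalling, listed by name, out of 28278 genes in the count table. They were measured in 4 lines of OCI-Ly7, a human diffuse large B cell lymphoma cell line, by MARS-seq, a barcoded RNA sequencing method that counts the 3′ ends of transcripts. The series compared a line with the EZH2 mutation Y646N, which the labels class as gain of function, a line with the kmt2d-/- genotype, a line with both changes, and the unedited wild type. EZH2 is the catalytic subunit of the Polycomb repressive complex that methylates lysine 27 of histone H3, a repressive mark. KMT2D methylates lysine 4 of the same histone, mainly at enhancers.

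The EZH2 mutant is represented by 2 libraries, the KMT2D mutant by 3, the double mutant by 3 and the wild type by 3. A replicate 3 of the EZH2 mutant is labelled but has no column in the table and is not analysed here. Every mutant was made by CRISPR in OCI-Ly7, so all groups share that lymphoma's own genome. The cells were untreated, and no receptor stimulation is labelled. The labels do not say whether each mutant line came from 1 clone, nor whether replicates were separate cultures, so every p-value below measures only the spread between these libraries.

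The B cell receptor is a surface immunoglobulin held by the signalling chains CD79A and CD79B, whose cytoplasmic tyrosine motifs are phosphorylated by SRC-family kinases when antigen binds. The kinases SYK and BTK and the adaptor BLNK then activate phospholipase C gamma, phosphoinositide 3-kinase and VAV exchange factors, and through protein kinase C the BCL10 and MALT1 complex that switches on NF-kB. Inhibitory receptors such as CD22 and CD72, with the phosphatases PTPN6 and INPP5D, restrain the pathway, and diffuse large B cell lymphomas often depend on it for survival.

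Library totals lay between 1118710 counts, in EZH2 mutant replicate 1, and 3107871 counts, in KMT2D mutant replicate 1. A floor of 3 counts corresponded to 0.965 to 2.68 CPM, the unit of counts scaled to a common library total. Members near that level are given by their raw counts. Such a floor covers only the counting error of the low group. The 3′ counts do not check the genotypes, because neither edit need change the level of its transcript. KMT2D differed by 0.19 (SE 0.27) on the log2 scale between the KMT2D mutant and wild type, and EZH2 by -0.23 (SE 0.17) between the EZH2 mutant and wild type, neither past the test. B cell markers summed to 6240 to 10800 CPM in every library. Most of these counts came from CD79A and CD79B, themselves members, with 81099 and 54284 over all libraries. In the same list EBF1 had 82 counts and BANK1 0. Plasma cell markers summed to 2380 to 2860 CPM in the EZH2 mutant, 2930 to 3510 CPM in the KMT2D mutant and 2370 to 2530 CPM in the double mutant, against 2990 to 3500 CPM in wild type. Those sums came from MZB1, with 49722 counts over all libraries, XBP1 with 9532 and IRF4 with 6681, while PRDM1 had 30 and SDC1 0. T and NK cell markers summed to 2.75 to 4.47 CPM in the EZH2 mutant, 8.37 to 12.9 CPM in the KMT2D mutant and 0 to 4.93 CPM in the double mutant, against 3.43 to 6.91 CPM in wild type, with CD3D, CD2 and CD8A at 0. Summed myeloid markers were 12.5 to 12.8 CPM in the EZH2 mutant, 11.5 to 16.2 CPM in the KMT2D mutant and 4.23 to 6.00 CPM in the double mutant, against 19.4 to 33.6 CPM in wild type, with CSF1R and MPO at 0. Fibroblast and epithelial markers summed to 0.894 to 0.916 CPM in the EZH2 mutant, 2.87 to 8.69 CPM in the KMT2D mutant and 1.76 to 6.34 CPM in the double mutant, against 5 to 9.35 CPM in wild type. The last 3 lists drew most of their counts from a few genes. Over all libraries PRF1 had 81 and CD247 43 counts, AIF1 had 321, and ACTA2 had 80 and VIM 40. No other gene of those lists had more than 24 counts. The part of any of these lists in the results below was not tested.

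Of the 28 members, 24 passed the filter on low counts and were tested among 8813 genes with edgeR's quasi-likelihood test, with adjusted p (Benjamini-Hochberg) under 0.05 as the threshold for a call. CR2, LYN, MALT1 and RASGRP3 were too low to test and are given as raw counts. Values called levels below are CPM scaled by edgeR's TMM factors, and differences are log2 fold changes with their standard error. In the EZH2 mutant 9 of 24 members differed from wild type, 7 higher and 2 lower, where 32.3% of all tested genes were called, 17.1% higher and 15.1% lower. In the KMT2D mutant 1 of 24 was lower than in wild type, where 7.66% of all genes were called, 3.18% higher and 4.48% lower. In the double mutant 6 of 24 differed from wild type, 3 higher and 3 lower, where 23.7% of all genes were called, 12.1% higher and 11.6% lower. Without double mutant replicate 1 that count was 3.

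The double mutant differed from the EZH2 mutant in 2 of 24 members, both lower, where 2.29% of all genes were called, 0.715% higher and 1.58% lower. That count was 0 without EZH2 mutant replicate 1, KMT2D mutant replicate 1 or 3, or any 1 of the double mutant libraries, and 3 without EZH2 mutant replicate 2. The double mutant differed from the KMT2D mutant in 10 of 24 members, 6 higher and 4 lower, where 41.9% of all genes were called, 21.2% higher and 20.8% lower. The members' shares of calls were 37.5%, 4.17% and 25% in the EZH2, KMT2D and double mutants against wild type, so the list as a whole was not far from the background in any of them. The members' median log2 difference from wild type was 0.08 in the EZH2 mutant, beside -0.04 over all genes, and -0.03 in the double mutant, beside -0.01 over all genes. The comparisons with wild type share the same 3 wild-type libraries. With upper-quartile scaling the median of all genes was -0.20 in the EZH2 mutant against wild type, and the members' split became 6 higher and 3 lower. In the double mutant against the KMT2D mutant the split was 4 higher and 8 lower with upper-quartile scaling, and 6 higher and 7 lower with DESeq2's size factors in edgeR (RLE).

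**Figure D1:**
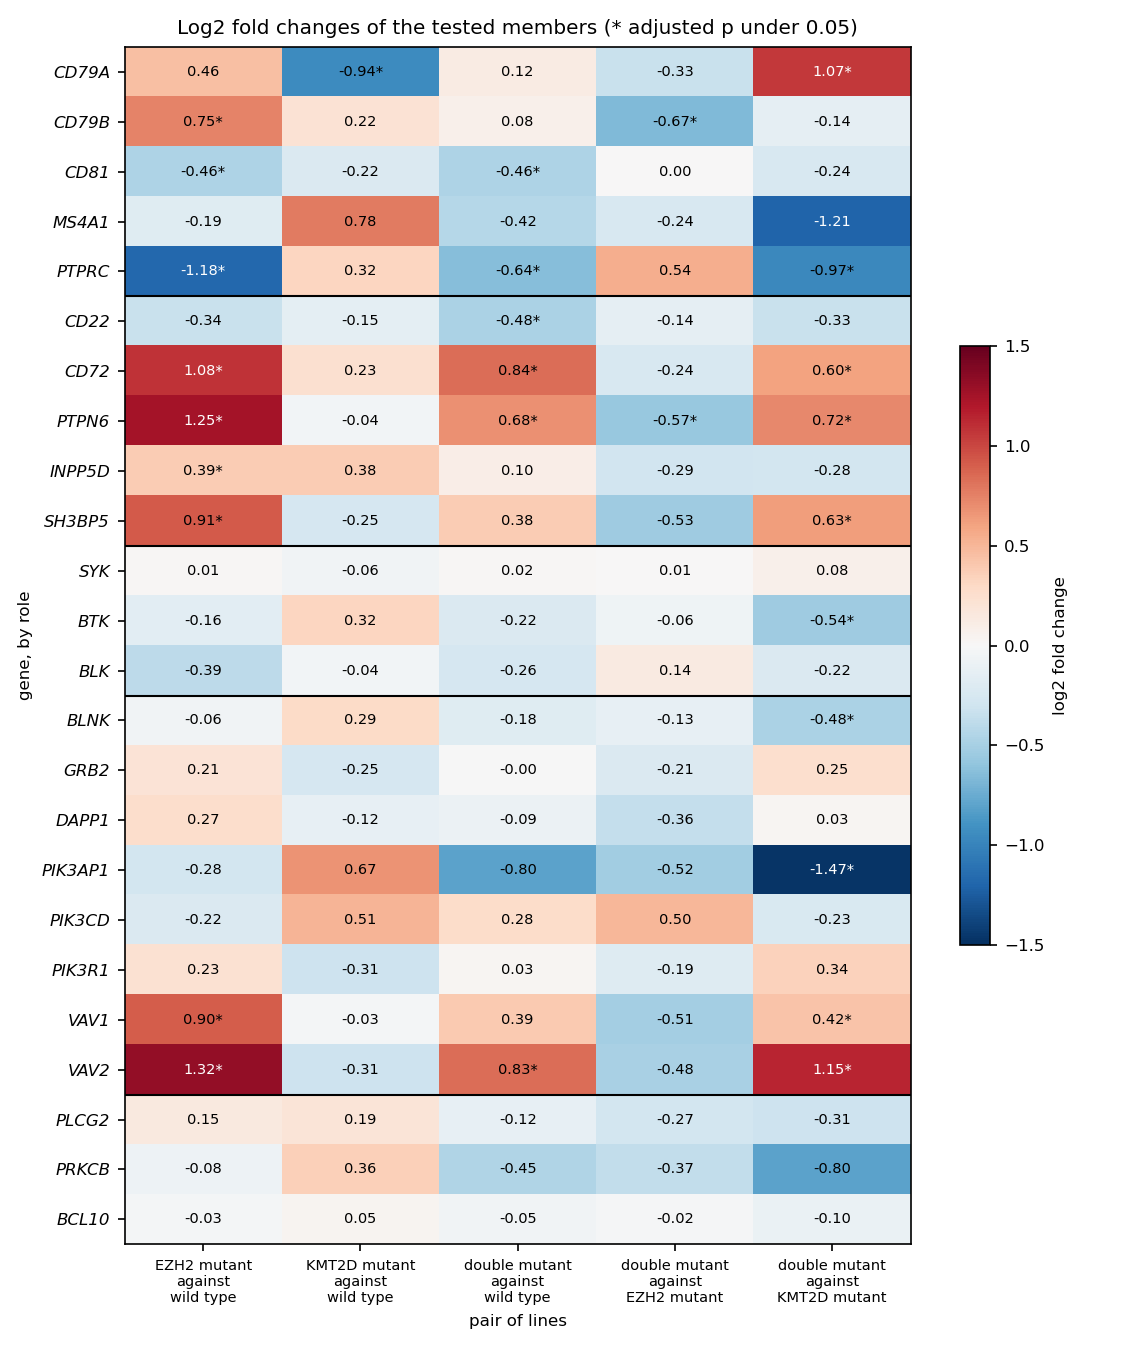
Log2 fold changes of the 24 tested members, ordered by role (horizontal lines), in 5 comparisons between lines; an asterisk marks an adjusted p under 0.05 in edgeR's quasi-likelihood test. The asterisks in the EZH2 mutant column fall mostly on the inhibitory members and the VAV exchange factors, and the KMT2D mutant column has 1, on CD79A.

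By role, the calls fell as follows. Among 5 inhibitory members (receptors, phosphatases and SH3BP5), 4 were higher in the EZH2 mutant than in wild type and none was lower. Over all tested genes 17.1% were higher and 15.1% lower there. Of 5 tested members at the receptor and its coreceptors, 1 was higher and 2 were lower in that line. The 8 adaptors, phosphoinositide 3-kinase subunits and exchange factors gave 2 higher members, both VAV genes. None of the 3 tested tyrosine kinases and none of 3 tested members of the phospholipase, protein kinase C and NF-kB branch was called in any mutant line against wild type. Over all genes 32.3%, 7.66% and 23.7% were called in the EZH2, KMT2D and double mutants. The role groups were drawn with earlier results of these data known, and whether they differed from each other was not tested.

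CD72, PTPN6 and VAV2 were higher than wild type in both lines that carry mutant EZH2, and their promoter sequences are shown for that reason. CD72 and PTPN6 are inhibitory members and VAV2 is a guanine nucleotide exchange factor. Each line gives the 250 bases before the RefSeq transcription start on GRCh38.p14, 5′ to 3′ on the gene's strand. Capitals mark GAGGAA, a core of sites for the B cell and myeloid factor PU.1, on either strand, or CCCNNGGG, a core of sites for EBF1, which reads the same on both strands.
CD72 (chr9:35618414-35618663, minus strand): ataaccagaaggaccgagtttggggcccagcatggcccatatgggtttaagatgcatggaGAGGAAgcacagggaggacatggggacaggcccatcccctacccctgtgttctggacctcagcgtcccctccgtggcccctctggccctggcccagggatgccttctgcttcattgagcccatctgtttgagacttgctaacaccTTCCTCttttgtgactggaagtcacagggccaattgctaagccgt
PTPN6 (chr12:6946327-6946576, plus strand): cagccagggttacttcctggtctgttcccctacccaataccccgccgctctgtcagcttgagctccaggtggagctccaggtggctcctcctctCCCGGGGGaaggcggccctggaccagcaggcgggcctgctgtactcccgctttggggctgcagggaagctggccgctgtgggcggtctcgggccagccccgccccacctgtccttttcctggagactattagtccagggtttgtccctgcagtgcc
VAV2 (chr9:133992325-133992574, minus strand): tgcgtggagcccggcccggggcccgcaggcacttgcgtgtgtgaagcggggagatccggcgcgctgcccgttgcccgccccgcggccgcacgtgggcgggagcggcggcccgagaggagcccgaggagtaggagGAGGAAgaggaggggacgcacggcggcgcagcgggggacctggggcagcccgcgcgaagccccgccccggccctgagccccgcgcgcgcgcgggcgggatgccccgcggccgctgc
The VAV2 window holds 40 CpG dinucleotides, PTPN6 10 and CD72 4, where the median over 27305 RefSeq promoters of this length was 11, with quartiles of 3 and 23. CD72 has GAGGAA 2 times and VAV2 once, and PTPN6 has CCCNNGGG once. The RefSeq promoter table used here was matched to 23 of the 28 members, and 9 of these 23 hold GAGGAA, where 23.4% of all promoters do. CCCNNGGG is in 6 of the 23, where 16.6% of all promoters hold it. The octamer ATGCAAAT, bound by OCT factors, is in 1 of the 23, PRKCB, where 1.66% of all promoters hold it, and no match of one motif was counted as another. These matches describe letters and were not tied to binding. The windows follow RefSeq's starts, which for all 3 genes lie inside the gene bounds of GENCODE 29.

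CD79A and CD79B encode the chains that carry the receptor's signal inward. CD79A (chr19:41877120-41881372, plus strand, GRCh38, GENCODE 29) was the 1 member lower in the KMT2D mutant, at 52.0% of the wild-type level. Its level was 1991, 2347 and 1942 CPM in the KMT2D mutant and 4852, 3148 and 4086 CPM in wild type. All 3 KMT2D mutant libraries lay below every wild-type library. The log2 difference was -0.94 (SE 0.16, adjusted p 0.00086, edgeR), and it held between -1.10 and -0.80 in all 20 alternatives, which were other scalings, filters, tools and designs and each library left out in turn.

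In the EZH2 mutant CD79A had 6618 and 4436 CPM, and in the double mutant 4260, 4571 and 4313 CPM. Both sets overlapped the wild-type range, and neither line was called against wild type (adjusted p 0.054 and 0.62, edgeR). The EZH2 difference was 0.46 (SE 0.18). It was called without EZH2 mutant replicate 2, at 0.71, without wild-type replicate 1, at 0.61, and with no filter on low counts, at 0.40, while without EZH2 mutant replicate 1 it was 0.16. Set against the KMT2D mutant, the double mutant was higher by 1.07 (SE 0.16, adjusted p 4.7e-05, edgeR), again with no overlap.

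CD79A lies on the long arm of chromosome 19, where other genes moved with it in the KMT2D mutant. From ZNF383 to the end of that arm 303 genes were tested, and 187 were lower and 0 higher in the KMT2D mutant than in wild type, with a median log2 difference of -0.81. The same 303 genes had a median of 0.17 in both the EZH2 mutant and the double mutant against wild type, and of 0.93 in the double mutant against the KMT2D mutant. CD79A's difference of -0.94 thus stood close to the median of its neighbours. The part of the shift along this stretch in the CD79A result was not tested, and DNA copy number is not measured by these counts. CD22 lies on the same arm nearer the centromere, outside this stretch, and is described below.

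CD79B, on chromosome 17, was higher in the EZH2 mutant and not in the other lines. Its level was 4022 and 3074 CPM in the EZH2 mutant, 2428, 2753 and 2195 CPM in the KMT2D mutant and 2268, 2186 and 2256 CPM in the double mutant, against 2540, 1723 and 2083 CPM in wild type. Both EZH2 mutant libraries lay above every other library of the series. The difference between the EZH2 mutant and wild type was 0.75 (SE 0.16, adjusted p 0.0016, edgeR) and was called in all 20 alternatives, between 0.44, with trends along transcript GC content and abundance removed (GC and abundance trends below), and 0.92, without EZH2 mutant replicate 2. The double mutant was lower than the EZH2 mutant by -0.67 (SE 0.16, adjusted p 0.030, edgeR), a call lost in 8 of 20 alternatives, among them leaving out any 1 double mutant library, EZH2 mutant replicate 1, or KMT2D mutant replicate 1 or 3. The smallest of its values in size was -0.48.

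The interaction asks whether the double mutant differs from the sum of the single-mutant differences on the log2 scale. It was called for 2 of 24 members, CD79B and INPP5D, where 3.02% of all genes were called, 1.5% higher and 1.52% lower, and both were lower in the double mutant than that sum. For CD79B the interaction was -0.88 (SE 0.22, adjusted p 0.028, edgeR). The call was lost in 8 of 19 alternatives, each the omission of 1 library: EZH2 mutant replicate 1, KMT2D mutant replicate 1 or 2, any double mutant library, or wild-type replicate 2 or 3. The values there and elsewhere ran from -1.05 to -0.68.

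The counts of the receptor chains within each library give a ratio that no scaling between libraries alters. CD79A counts per CD79B count were 1.65 and 1.44 in the EZH2 mutant, 0.820, 0.853 and 0.885 in the KMT2D mutant and 1.88, 2.09 and 1.91 in the double mutant, against 1.91, 1.83 and 1.96 in wild type. The KMT2D mutant averaged 0.852 ± 0.0323 (SD, n = 3) and wild type 1.90 ± 0.0681 (SD, n = 3), with no overlap. An exact permutation test, two-sided, gave p = 0.1 for the KMT2D mutant, the smallest that 3 libraries against 3 allow. The same exact permutation test gave p = 0.2 for the EZH2 mutant, also its smallest possible, and p = 0.5 for the double mutant. The ratio sets counts of different genes side by side and is read only between libraries.

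**Figure D2:**
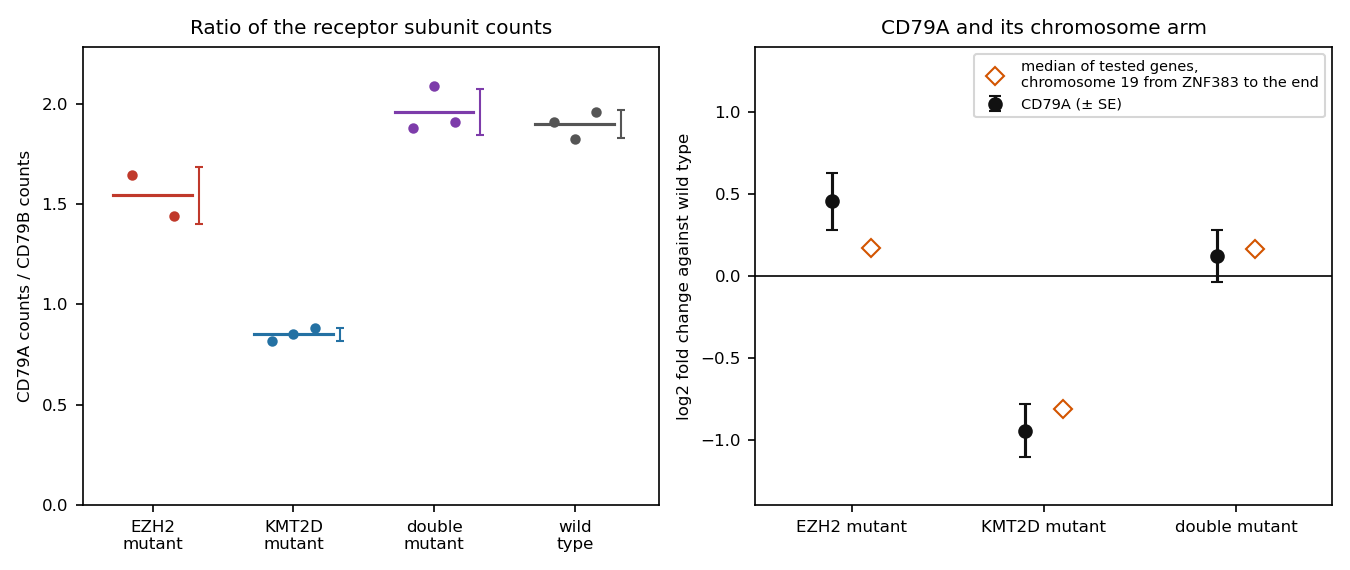
Left, CD79A counts divided by CD79B counts in each library (points) of the 4 lines, with the mean (line) and SD (bar). Right, log2 fold change of CD79A against wild type with its standard error, beside the median of 303 genes on the distal long arm of chromosome 19. The KMT2D mutant libraries sit at 0.820 to 0.885 and all others at 1.44 or above, and CD79A stands near the median of its arm in the KMT2D mutant.

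The other members at the cell surface were CD81, a tetraspanin of the coreceptor complex, CR2, the complement receptor of that complex, PTPRC, the CD45 phosphatase that activates SRC-family kinases, and MS4A1, the CD20 antigen. PTPRC had the largest called difference among these. Its level was 34.8 and 81.4 CPM in the EZH2 mutant, 173, 161 and 189 CPM in the KMT2D mutant and 70.6, 80.8 and 117 CPM in the double mutant, against 140.3, 151 and 127 CPM in wild type. No library with mutant EZH2 reached the lowest wild-type library, and every KMT2D mutant library lay above the highest.

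In the EZH2 mutant PTPRC fell by 1.18 on the log2 scale (SE 0.26, adjusted p 0.0034, edgeR), and it stayed called in all 20 alternatives. Its EZH2 mutant libraries differed by more than 2-fold, and the value was -0.76 without replicate 1, the shallowest library, and -2.00 without replicate 2. In the double mutant it fell by 0.64 against wild type (SE 0.22, adjusted p 0.045, edgeR), a call lost in 8 alternatives: with GC and abundance trends removed, and without KMT2D mutant replicate 1 or 3, double mutant replicate 1 or 2, or any wild-type library. Against the KMT2D mutant it fell by 0.97 in the double mutant (SE 0.22, adjusted p 0.0026, edgeR) and was called in every alternative. The KMT2D mutant differed from wild type by 0.32 (SE 0.21), which was not called.

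CD81 had 1749 and 1312 CPM in the EZH2 mutant, 1689, 2058 and 1687 CPM in the KMT2D mutant and 1411, 1636 and 1549 CPM in the double mutant, against 2402, 1731 and 2179 CPM in wild type. The double mutant lay below every wild-type library, whereas the EZH2 mutant overlapped the lowest of them. CD81 fell by 0.46 on the log2 scale against wild type both in the EZH2 mutant (SE 0.16, adjusted p 0.036, edgeR) and in the double mutant (SE 0.14, adjusted p 0.026, edgeR). The EZH2 call was lost in 5 alternatives, among them a fit of only the groups compared, without wild-type replicate 1 or 3, and without EZH2 mutant replicate 2, where the value was -0.27. Without EZH2 mutant replicate 1 it was -0.66. The double mutant call was lost in 3, without double mutant replicate 1 or wild-type replicate 1 or 3.

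MS4A1 varied widely within lines. Its level was 14.3 and 77.9 CPM in the EZH2 mutant, 107, 79.9 and 109.9 CPM in the KMT2D mutant and 50.3, 21.9 and 54.6 CPM in the double mutant, against 28.9, 46.6 and 95.8 CPM in wild type. Its highest library exceeded its lowest 5.44-fold in the EZH2 mutant and 3.32-fold in wild type, and no comparison was called. All double mutant libraries lay below the KMT2D mutant, with a difference of -1.21 (SE 0.60, adjusted p 0.15, edgeR), which was called in the fit of only those lines (adjusted p 0.0057). The standard errors against wild type were 0.57 to 0.69 on the log2 scale, so a difference of 2-fold was not detectable for this gene.

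CR2 was measured by few reads, and all but 1 came from lines with unmutated EZH2. Its counts were 0 and 0 in the EZH2 mutant, 14, 6 and 13 in the KMT2D mutant and 0, 0 and 1 in the double mutant, against 4, 3 and 6 in wild type. For 0 counts in the EZH2 mutant against 13 in wild type, the 95% counting interval began at 1.25-fold lower. A floor of 3 counts over the EZH2 mutant gave 1.77-fold lower, which leaves out the counting error of wild type and is not a bound. The double mutant, with 1 count in all, was 9.01-fold lower than wild type (95% counting interval 1.35 to 383) and 22.7-fold lower than the KMT2D mutant (3.79 to 922). When edgeR was run with no filter on low counts, CR2 was called in the EZH2 mutant against wild type (adjusted p 0.040) and in the double mutant against the KMT2D mutant (adjusted p 0.00016). It was not called in the double mutant against wild type (adjusted p 0.064).

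**Figure D3:**
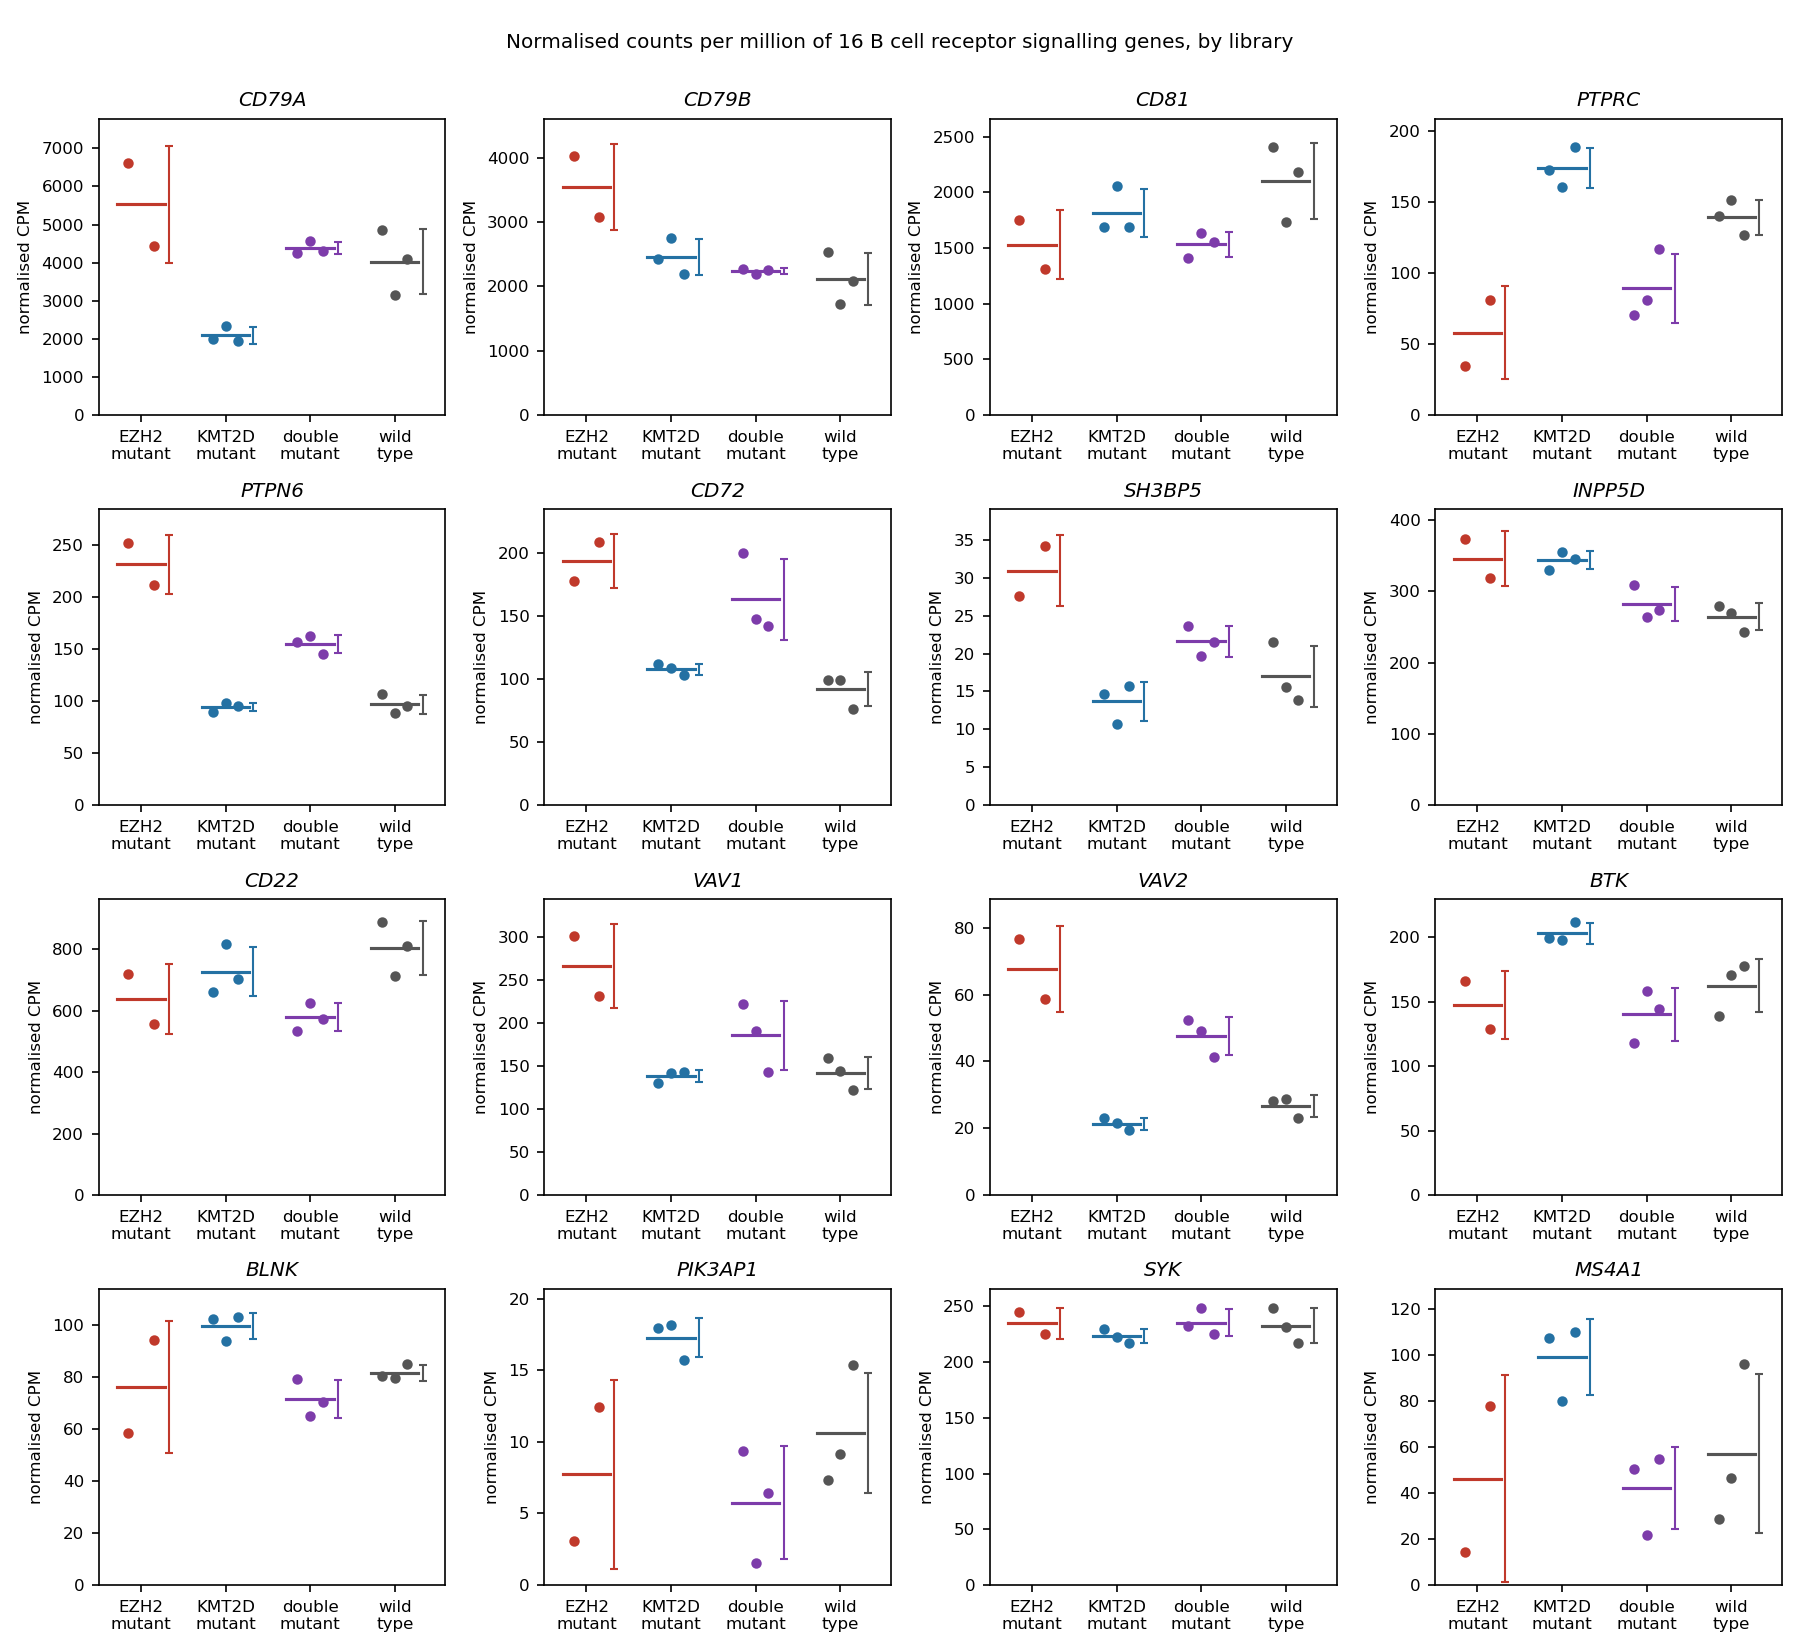
Normalised level in CPM of 16 members in each library (dots), with the mean (line) and SD (bar) of the EZH2 mutant (n = 2), KMT2D mutant (n = 3), double mutant (n = 3) and wild type (n = 3). Each panel has its own vertical axis: PTPN6, CD72 and VAV2 stand above wild type in both lines with mutant EZH2, CD79A is low in the KMT2D mutant, and SYK spans 217 to 248 CPM over the 4 lines.

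The inhibitory members held the most calls in the EZH2 mutant. PTPN6, the SHP-1 phosphatase that inhibitory receptors recruit, had 252 and 211 CPM in the EZH2 mutant, 89.9, 98.0 and 95.4 CPM in the KMT2D mutant and 157, 162 and 146 CPM in the double mutant, against 107, 88.7 and 95.5 CPM in wild type. The lines fell into an order without overlap, with the EZH2 mutant highest and the double mutant next, while the KMT2D mutant and wild type overlapped. PTPN6 rose by 1.25 in the EZH2 mutant (SE 0.14, adjusted p 4.7e-06, edgeR), or 2.38-fold, and by 0.68 in the double mutant (SE 0.13, adjusted p 0.00093, edgeR), both called in all 20 alternatives.

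Directly compared, PTPN6 was 0.57 lower in the double mutant than in the EZH2 mutant on the log2 scale (SE 0.14, adjusted p 0.038, edgeR). That call was lost in 8 of 20 alternatives, among them a fit of only the groups compared and those without EZH2 mutant replicate 1, KMT2D mutant replicate 1 or 3, or any double mutant library. It was higher in the double mutant than in the KMT2D mutant by 0.72 (SE 0.13, adjusted p 0.00025, edgeR) in every alternative, with 0.41 as the smallest value. The promoter printed above for PTPN6 had 10 CpG dinucleotides, near the median of all promoters.

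CD72, a lectin-like coreceptor that recruits PTPN6, had 178 and 208 CPM in the EZH2 mutant, 112, 109 and 103 CPM in the KMT2D mutant and 200.3, 148 and 142 CPM in the double mutant, against 99.6, 99.6 and 76.3 CPM in wild type. Every library with mutant EZH2 lay above every library without it. CD72 rose by 1.08 in the EZH2 mutant (SE 0.17, adjusted p 0.00011, edgeR) and by 0.84 in the double mutant (SE 0.15, adjusted p 0.00065, edgeR) against wild type, in all 20 alternatives. Against the KMT2D mutant it rose by 0.60 in the double mutant (SE 0.15, adjusted p 0.0039, edgeR), which was lost only when GC and abundance trends were removed (0.21, adjusted p 0.35). CD72 overlaps TESK1 at its 3′ end on the opposite strand, and the strand setting of the counting is not given. TESK1 had 1282 counts over all libraries against 2906 for CD72.

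SH3BP5 encodes a BTK-binding protein that inhibits the kinase. Its level was 27.7 and 34.3 CPM in the EZH2 mutant, 14.6, 10.7 and 15.7 CPM in the KMT2D mutant and 23.7, 19.6 and 21.5 CPM in the double mutant, against 21.5, 15.6 and 13.8 CPM in wild type. The EZH2 mutant stood above all other lines, and the double mutant overlapped wild type. SH3BP5 rose by 0.91 in the EZH2 mutant (SE 0.26, adjusted p 0.010, edgeR), but not past the threshold without EZH2 mutant replicate 2 (adjusted p 0.15). The double mutant exceeded the KMT2D mutant by 0.63 (SE 0.24, adjusted p 0.040, edgeR). This call was lost in 10 alternatives, among them DESeq2, upper-quartile scaling, no filter, and leaving out any KMT2D or double mutant library or wild-type replicate 2. SH3BP5-AS1, on the opposite strand, covers the 3′ end of SH3BP5, with 94 counts over all libraries against 432 for SH3BP5.

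INPP5D encodes SHIP1, the lipid phosphatase that opposes phosphoinositide 3-kinase. It had 374 and 319 CPM in the EZH2 mutant, 330.5, 356 and 345 CPM in the KMT2D mutant and 309, 264 and 274 CPM in the double mutant, against 280.1, 270.0 and 243 CPM in wild type. Both single mutants lay above wild type without overlap, and the double mutant overlapped it. The difference was 0.39 in the EZH2 mutant (SE 0.13, adjusted p 0.032, edgeR), 0.38 in the KMT2D mutant (SE 0.12, adjusted p 0.054, edgeR) and 0.10 in the double mutant (SE 0.12).

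The INPP5D call in the EZH2 mutant was lost in 12 of 20 alternatives, with values of 0.07 to 0.36 in those 12. These included DESeq2, a fit of only the groups compared, no filter, and leaving out EZH2 mutant replicate 1, KMT2D mutant replicate 1 or 3, double mutant replicate 3 or wild-type replicate 2 or 3. The lowest value came with GC and abundance trends removed, and upper-quartile scaling gave 0.21. The KMT2D difference, in turn, became a call in 6 alternatives. The interaction for INPP5D was -0.67 (SE 0.18, adjusted p 0.046, edgeR) and was lost in 10 of 19 alternatives, among them leaving out any 1 library other than EZH2 mutant replicate 2 or double mutant replicate 1.

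CD22, a sialic acid-binding inhibitory receptor, was the 1 inhibitory member lower in a mutant line. It had 719 and 556 CPM in the EZH2 mutant, 662, 816 and 704 CPM in the KMT2D mutant and 535, 625 and 575 CPM in the double mutant, against 888, 715 and 810.4 CPM in wild type. The double mutant lay below every wild-type library and below every KMT2D mutant library. CD22 fell by 0.48 in the double mutant against wild type (SE 0.13, adjusted p 0.014, edgeR), a call lost without double mutant replicate 1 (adjusted p 0.060). Against the KMT2D mutant the difference was -0.33 (SE 0.13, adjusted p 0.053, edgeR), which was called in 13 of 20 alternatives. The EZH2 mutant differed from wild type by -0.34 (SE 0.15, adjusted p 0.091, edgeR). It was called with no filter, with upper-quartile scaling, with GC and abundance trends removed, and without wild-type replicate 2. Without EZH2 mutant replicate 2 the value was -0.16, and without replicate 1 it was -0.51.

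No tyrosine kinase was called in a mutant line against wild type. SYK, which docks on the phosphorylated CD79 chains, had 225 to 245 CPM in the EZH2 mutant, 218 to 230.0 CPM in the KMT2D mutant, 225 to 248 CPM in the double mutant and 217 to 248 CPM in wild type. Its differences between lines were at most 0.08 on the log2 scale, with standard errors of 0.11 to 0.13. BTK, which phosphorylates phospholipase C gamma, had 166 and 129 CPM in the EZH2 mutant, 199, 198 and 212 CPM in the KMT2D mutant and 118, 159 and 145 CPM in the double mutant, against 139, 171 and 177 CPM in wild type.

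The KMT2D mutant was the highest line for BTK without overlap. BTK fell by 0.54 in the double mutant against the KMT2D mutant (SE 0.14, adjusted p 0.0056, edgeR) in every alternative, while the KMT2D mutant differed from wild type by 0.32 (SE 0.14, adjusted p 0.20, edgeR). BLK, a SRC-family kinase of B cells, averaged 451 ± 163 CPM in the EZH2 mutant (SD, n = 2), 569.9 ± 126 CPM in the KMT2D mutant and 493 ± 75.8 CPM in the double mutant, against 588 ± 111 CPM in wild type (SD, n = 3 each). Its lines overlapped and no comparison was called, but without EZH2 mutant replicate 1 the EZH2 difference was -0.79 (adjusted p 0.037, edgeR) and without replicate 2 it was -0.05 (adjusted p 0.89, edgeR). It was also called with no filter and with GC and abundance trends removed. LYN, the SRC-family kinase that starts the signal in many B cells, had 1 to 7 counts per library and could not be compared.

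VAV1 and VAV2 encode exchange factors that link the receptor to the actin cytoskeleton. VAV2 had 76.8 and 58.6 CPM in the EZH2 mutant, 23.1, 21.5 and 19.5 CPM in the KMT2D mutant and 52.3, 49.1 and 41.3 CPM in the double mutant, against 28.3, 28.9 and 23.0 CPM in wild type. Every library with mutant EZH2 lay above every library without it, and the EZH2 mutant lay above the double mutant. VAV2 rose by 1.32 in the EZH2 mutant (SE 0.20, adjusted p 8.3e-05, edgeR), or 2.49-fold. It rose by 0.83 in the double mutant (SE 0.18, adjusted p 0.0027, edgeR) against wild type and was 2.22-fold higher than in the KMT2D mutant (adjusted p 8.9e-05, edgeR). All 3 calls held in all 20 alternatives.

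VAV1 had 301 and 232 CPM in the EZH2 mutant, 131, 142 and 143 CPM in the KMT2D mutant and 223, 191 and 144 CPM in the double mutant, against 159, 145 and 122 CPM in wild type. The EZH2 mutant stood above all other lines, and the lowest double mutant library fell within the wild-type range. VAV1 rose by 0.90 in the EZH2 mutant (SE 0.17, adjusted p 0.00069, edgeR) in all 20 alternatives, and the double mutant differed from wild type by 0.39 (SE 0.16, adjusted p 0.077, edgeR). Against the KMT2D mutant the double mutant was higher by 0.42 (SE 0.16, adjusted p 0.037, edgeR), a call lost in 8 alternatives: DESeq2, upper-quartile scaling, GC and abundance trends removed, and without any KMT2D mutant library or double mutant replicate 1 or 2.

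Among the adaptors, BLNK and PIK3AP1 were lower in the double mutant than in the KMT2D mutant. BLNK, the scaffold on which BTK meets phospholipase C gamma, had 58.4 and 94.3 CPM in the EZH2 mutant, 102, 94.0 and 103 CPM in the KMT2D mutant and 79.5, 65.0 and 70.3 CPM in the double mutant, against 80.3, 79.6 and 85.1 CPM in wild type. The double mutant lay below both the KMT2D mutant and wild type without overlap. BLNK fell by 0.48 against the KMT2D mutant (SE 0.16, adjusted p 0.022, edgeR), a call lost without KMT2D mutant replicate 1 or 3 or double mutant replicate 2. Against wild type the difference was -0.18 (SE 0.16).

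PIK3AP1, the adaptor BCAP that recruits phosphoinositide 3-kinase, had 3.07 and 12.4 CPM in the EZH2 mutant, 18.0, 18.1 and 15.7 CPM in the KMT2D mutant and 9.38, 1.51 and 6.39 CPM in the double mutant, against 7.36, 9.18 and 15.3 CPM in wild type. The KMT2D mutant was the highest line without overlap, and the other lines overlapped. It fell by 1.47 in the double mutant against the KMT2D mutant (SE 0.43, adjusted p 0.011, edgeR) in every alternative. These levels rest on as few as 2 counts in double mutant replicate 2 and 3 counts in EZH2 mutant replicate 1.

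The remaining adaptors and enzymes were called in no pair of lines. They were GRB2, which links receptors to RAS activation, DAPP1, an adaptor that binds phosphoinositides, PIK3CD and PIK3R1, the catalytic and regulatory subunits of phosphoinositide 3-kinase, and PLCG2, PRKCB and BCL10 of the branch that leads to NF-kB. With SYK, BLK and MS4A1 they make 10 members called in no pair. The share of all tested genes called in no pair was not counted, so this number has no background beside it. The log2 differences of these 10 from wild type ran from -0.39 to 0.27 in the EZH2 mutant. In the KMT2D mutant they ran from -0.31 to 0.78, and in the double mutant from -0.45 to 0.28.

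PIK3CD had 41.0 and 39.2 CPM in the EZH2 mutant, 61.8, 67.1 and 70.5 CPM in the KMT2D mutant and 63.2, 43.8 and 61.0 CPM in the double mutant, against 55.4, 47.3 and 38.0 CPM in wild type. The KMT2D mutant lay above wild type without overlap, by 0.51 (SE 0.17, adjusted p 0.075, edgeR). CLSTN1, on the opposite strand, covers the 3′ end of PIK3CD, with 6321 counts over all libraries against 1233 for PIK3CD. PRKCB, the protein kinase C isoform of the NF-kB branch, had 5.12 and 12.9 CPM in the EZH2 mutant, 11.6, 12.8 and 16.1 CPM in the KMT2D mutant and 6.42, 6.80 and 9.88 CPM in the double mutant, against 9.62, 9.52 and 12.3 CPM in wild type. The double mutant and the KMT2D mutant did not overlap, with a difference of -0.80 (SE 0.32, adjusted p 0.053, edgeR), which was called in 8 of 20 alternatives.

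GRB2 had 665 and 714 CPM in the EZH2 mutant, 461 to 527 CPM in the KMT2D mutant and 515 to 689.9 CPM in the double mutant, against 546 to 654 CPM in wild type. Its levels in the EZH2 mutant lay just above the wild-type range, by 0.21 (SE 0.14), which was not called. In the KMT2D mutant its levels lay below that range, with a difference of -0.25, also not called. PLCG2, the phospholipase that makes diacylglycerol and inositol trisphosphate, had 17.4 and 32.3 CPM in the EZH2 mutant, 22.6 to 34.1 CPM in the KMT2D mutant and 13.6 to 26.2 CPM in the double mutant, against 17.5 to 28.2 CPM in wild type. BCL10, the adaptor that binds MALT1, had 13.3 and 12.9 CPM in the EZH2 mutant, 9.44 to 18.1 CPM in the KMT2D mutant and 11.6 to 14.3 CPM in the double mutant, against 9.20 to 18.4 CPM in wild type. Both genes overlapped between all lines, with standard errors of 0.26 to 0.36 against wild type, so these data do not show that they were alike. MALT1, the protease partner of BCL10, had 1 to 10 counts per library, and RASGRP3, a RAS exchange factor, had 0 to 2.

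Spread within a line bears on all of these values. The median ratio of the highest to the lowest library over the 24 tested members was 1.31 in the EZH2 mutant, 1.18 in the KMT2D mutant, 1.29 in the double mutant and 1.31 in wild type. PIK3AP1, PRKCB, MS4A1 and PTPRC differed by more than 2-fold between the EZH2 mutant libraries, and PIK3AP1 and MS4A1 did so in the double mutant and in wild type. No member did so in the KMT2D mutant, where the widest was BCL10 at 1.92-fold. All 4 of the genes that were uneven in the EZH2 mutant were lower in replicate 1, the shallowest library, and the part of depth was not tested.

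Lines with mutant EZH2 can be compared with lines without it, both with KMT2D and without KMT2D, and these 2 comparisons share no library. The KMT2D mutant and the double mutant also differed along distal chromosome 19, where CD79A lies. The median there was 0.93 in that pair and 0.17 in the EZH2 mutant against wild type. Each genotype is 1 line, so mutant EZH2 and other differences between the lines cannot be told apart. Of the 24 tested members, 21 (87.5%) had the same sign in the EZH2 mutant against wild type as in the double mutant against the KMT2D mutant, where 6879 of 8813 genes (78.1%) did. Across the 24 members the log2 differences had a Pearson r of 0.77 and a Spearman rho of 0.79, where all 8813 genes had 0.65 and 0.70. Genes are not independent replicates, so these describe the lists. Members called in both were CD72, PTPN6, PTPRC, SH3BP5, VAV1 and VAV2, 6 of 9 called with KMT2D and 6 of 10 called without it, all with the same sign. Over all genes 1943 of 2846 and of 3695 were called in both, 1901 with the same sign.

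**Figure D4:**
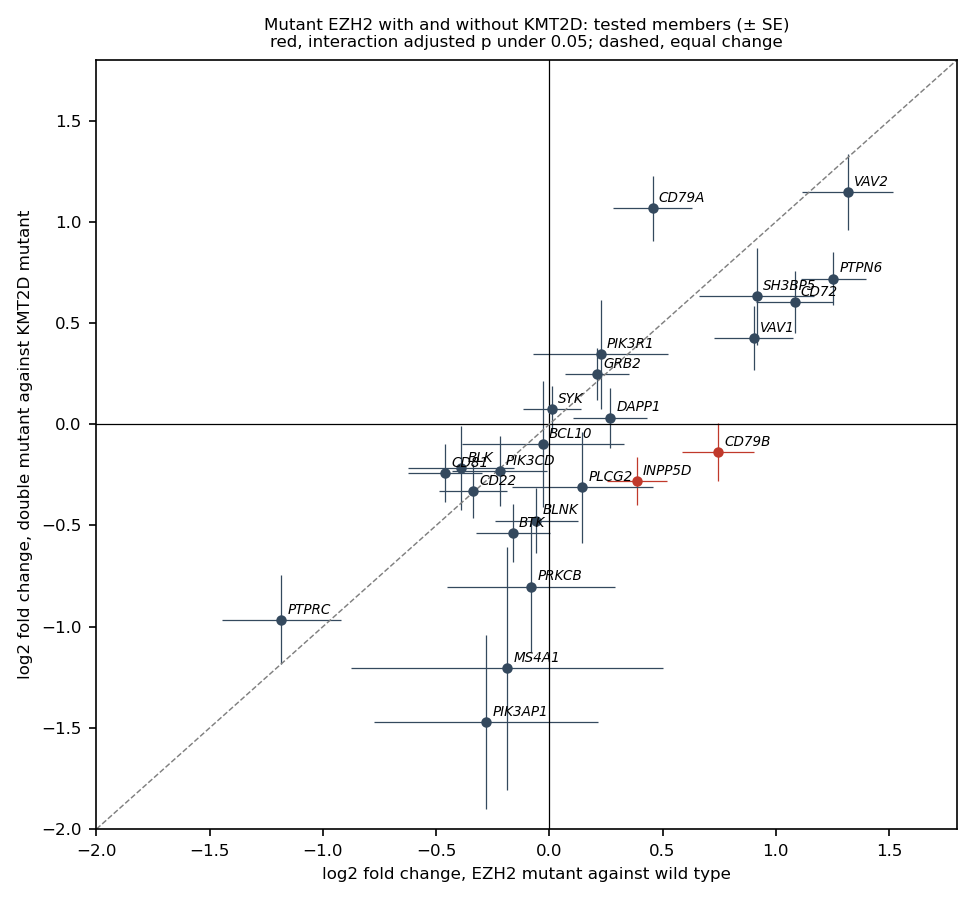
Log2 fold change (± SE) of each tested member for mutant EZH2, in cells with KMT2D (EZH2 mutant against wild type, horizontal) and in cells without it (double mutant against KMT2D mutant, vertical); the dashed line marks equal change. Most points lie in the lower left or upper right, 21 of 24, and CD79B and INPP5D (red), the members with a called interaction, lie below the line.

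CD79B showed the widest departure that was called. Its difference for mutant EZH2 was 0.75 (SE 0.16) with KMT2D and -0.14 (SE 0.14) without it. For INPP5D the values were 0.39 (SE 0.13) and -0.28 (SE 0.12). Both pairs differ in sign, and the interaction given above is the test of each. For the other 22 tested members the interaction was not called, which does not show that the effects were equal. All 3 double mutant libraries lay within the wild-type range for CD79B, and 2 of 3 did for INPP5D, with the other above it.

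Of 86 further genes of the pathway, chosen by their annotated roles with earlier results known, 61 were tested. In the EZH2 mutant 21 differed from wild type, 11 higher and 10 lower (34.4%), in the KMT2D mutant 11, 4 higher and 7 lower (18%), and in the double mutant 13, 6 higher and 7 lower (21.3%). These shares stand beside 32.3%, 7.66% and 23.7% of all genes. In the KMT2D mutant AKT2, CALM3, SIGLEC10 and CD37 all lie on the same distal arm of chromosome 19 as CD79A and were lower, by -1.09, -1.09, -1.02 and -0.62 on the log2 scale. The median of that arm was -0.81 in that line.

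FCGR2B, the inhibitory Fc receptor that recruits INPP5D, had 34.8 and 39.2 CPM in the EZH2 mutant, 2.44, 0 and 2.30 CPM in the KMT2D mutant and 9.38, 10.6 and 8.14 CPM in the double mutant, against 5.66, 5.78 and 7.67 CPM in wild type. It rose by 2.53 in the EZH2 mutant (SE 0.33, adjusted p 2.1e-05, edgeR) and stood between the other lines in the double mutant, 2.00 lower than in the EZH2 mutant (SE 0.34, adjusted p 0.0017, edgeR). FCGR2B shares sequence with other Fc gamma receptor genes, so its counts are uncertain. SIGLEC10, another inhibitory receptor, had 57.4 and 61.6 CPM in the EZH2 mutant and 44.9, 38.5 and 45.3 CPM in the double mutant, against 31.7, 26.5 and 25.3 CPM in wild type, higher by 1.11 (SE 0.19) and 0.64 (SE 0.17).

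HRAS, a RAS GTPase, rose by 1.30 in the EZH2 mutant (SE 0.22, adjusted p 0.00033, edgeR). Its level was 123.6 and 170 CPM in the EZH2 mutant and 93.65 to 102.9 CPM in the double mutant. It was 37.91 to 75.18 CPM in the KMT2D mutant and 49.79 to 65.55 CPM in wild type. ORAI1, the calcium channel that opens after store release, rose by 0.97 in the double mutant (SE 0.20, adjusted p 0.0015, edgeR). ORAI1 averaged 85.29 CPM in the double mutant and 85.94 CPM in the EZH2 mutant. The KMT2D mutant averaged 43.35 CPM and wild type 43.33 CPM.

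DGKA, the kinase that removes diacylglycerol, had 100.2, 109 and 102 CPM in the double mutant and 183, 174 and 153 CPM in wild type, a fall of 0.71 (SE 0.12, adjusted p 0.00042, edgeR). It had 139.3 and 146.4 CPM in the EZH2 mutant and 158.5 to 169.2 CPM in the KMT2D mutant. PRKCA, another protein kinase C, had 0, 1 and 0 counts in the double mutant and 12, 14 and 23 counts in wild type, 34.0-fold lower (95% counting interval 5.82 to 1370). In the EZH2 mutant PRKCA had 3 counts in all, 6.68-fold lower than wild type (95% counting interval 2.15 to 33.5). The KMT2D mutant had 24 counts in all.

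Of 10 immunoglobulin chain and J chain genes sought by name, IGLL5 and JCHAIN are in the table and the others have no row there. IGLL5, a lambda-like light chain gene, had 59.4 and 44.2 CPM in the EZH2 mutant, 1621, 1687 and 1695 CPM in the KMT2D mutant and 63.7, 99.7 and 56.4 CPM in the double mutant, against 898, 726 and 753 CPM in wild type. All libraries with mutant EZH2 were far below every library without it. The log2 difference from wild type was -3.96 (SE 0.22), 1.07 (SE 0.16) and -3.45 (SE 0.18) in the EZH2, KMT2D and double mutants, each called. Its sequence is shared with the lambda constant region genes, so the gene that gave these reads is uncertain. Fewer cells with a transcript and less of it per cell cannot be told apart in these bulk libraries, here or for any member.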

How the data were processed

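RNA from 4 OCI-Ly7 lines was sequenced by MARS-seq, and the deposited table holds counts per gene, which the authors' file name calls corrected; how they were corrected, the genome build, the annotation and the counting program are not given in the sources used here. The submitters' processing notes name Trim Galore 0.6.0, cutadapt 1.15, FastQC, STAR 2.7.0f and DESeq2. The deposited counts are whole numbers for 28278 genes, of which 13188 are 0 in all 11 libraries. Columns were matched to samples by line and replicate number, and the 3 columns headed DM, which name no line of the labels directly, were read as the double mutant. If the counting ignored strand, reads of overlapping genes cannot be told apart.

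Counts were filtered with filterByExpr (minimum count 10), scaled with TMM and tested with edgeR 4.0.16 in R 4.3.3 (glmQLFit with robust estimates, glmQLFTest), with 1 term per line, all 11 libraries in the fit, and Benjamini-Hochberg adjustment over 8813 genes within each comparison, threshold 0.05. The standard error of a log2 fold change was its size divided by the square root of F. Alternatives were other scaling factors, no or a stricter filter, DESeq2 1.42.0, limma-voom (limma 3.58.1), a fit of only the groups compared, a block for the replicate number, and each library left out. Removing trends with the GC content of the last 500 transcript bases and with abundance, and leaving out the distal arm of chromosome 19, were chosen after seeing the data. On simulated counts for 8813 genes, 100 were changed 2-fold and 100 were changed 1.5-fold. The EZH2 mutant comparison recovered 35% and 8% of them, the KMT2D mutant comparison 55% and 10%, and the double mutant comparison 50% and 13%. Fewer genes were changed there than were called in the data (32.3% in the EZH2 mutant), which makes the adjusted threshold stricter. These shares therefore do not give the part missed in the data, and an uncalled gene may still differ.

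The members, the role groups and the further pathway genes were chosen with earlier results of these data known. Members were given library by library where called in any pair of lines. Of the further genes, up to 4 with the smallest adjusted p per mutant line were named, plus immunoglobulin chain and J chain genes. Some genes that this rule names are not reported here. Coordinates are from GENCODE 29 on GRCh38 and promoters from RefSeq on GRCh38.p14.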

Additional observations from a re-analysis of the deposited data

Results flagged for a closer look

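CD79B and INPP5D are given a closer look for their called interaction. By that test, the difference between lines with and without mutant EZH2 was not the same with KMT2D as without it. The calls did not hold in every alternative. For CD79B the interaction was -0.88 on the log2 scale (SE 0.22, adjusted p 0.028, edgeR's quasi-likelihood test), from 0.75 with KMT2D and -0.14 without it. For INPP5D it was -0.67 (SE 0.18, adjusted p 0.046, edgeR), from 0.39 and -0.28. The call was lost in 8 of 19 alternatives for CD79B and in 10 of 19 for INPP5D, most of them the omission of 1 library. In both, the double mutant lay below the sum of the single-mutant differences, and 3.02% of all tested genes had a called interaction. Groups of 2 or 3 libraries are too small for an outlier check.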

How the results depend on the processing

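Among the members' log2 differences under 20 alternatives none reversed after being called, 86 lost a call, 60 gained one and 2710, called or not, stayed on the same side of the threshold. Members called in the KMT2D mutant against wild type, 1 in the report, were 2 with upper-quartile factors, limma-voom or only the groups compared, 4 with GC and abundance trends removed (CD79B, INPP5D and PIK3CD higher, CD79A lower), and 1 to 2 with 1 library left out. Leaving out 1 library gave 3 to 7 members in the double mutant against wild type, with 3 without double mutant replicate 1, 7 to 9 in the EZH2 mutant and 7 to 14 in the double mutant against the KMT2D mutant. Members called in the double mutant against the EZH2 mutant, 2 in the report, were 0 with the replicate block or only the groups compared and 0 to 3 with 1 library left out. The interaction gave 1 member with the replicate block and 0 to 2 with 1 library left out.

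Over all genes, leaving out 1 library gave 1779 to 2874 calls in the EZH2 mutant against wild type (2846 in the report), lowest without EZH2 mutant replicate 1, 339 to 802 in the KMT2D mutant (675), 1381 to 2286 in the double mutant (2087), 99 to 242 in the double mutant against the EZH2 mutant (202) and 147 to 309 for the interaction (266). With no filter the double mutant against the EZH2 mutant gave 381 and the interaction 482, with GC and abundance trends removed 349 and 471, and with only the groups compared the double mutant against the EZH2 mutant gave 92. Without distal chromosome 19 the KMT2D mutant had 488. The KMT2D mutant gave 347 without its replicate 1, 339 without its replicate 3 and 446 without wild-type replicate 1. With upper-quartile factors the EZH2 mutant had 1015 higher and 1762 lower genes, against 1511 and 1335, and with GC and abundance trends removed 6 members higher and 4 lower. The causes were not tested.

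Replicate numbers are shared by the lines but did not pair the libraries: correlations of same-numbered libraries' deviations ran from -0.29 to 0.38 over 15 pairs, 5 over 0.1. The replicate block gave 7 members in the EZH2 mutant and 6 in the double mutant against wild type, and 11 in the double mutant against the KMT2D mutant. It ended the calls of CD81 and INPP5D in the EZH2 mutant (adjusted p 0.055 and 0.060, edgeR), of CD79B and PTPN6 in the double mutant against the EZH2 mutant (0.059 and 0.082) and of the INPP5D interaction (0.070), and added PRKCB in the double mutant against the KMT2D mutant (0.045). CR2, LYN, MALT1 and RASGRP3 had too few counts to pass the filter, and EZH2 mutant values rest on 2 libraries.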
